A study of Mus musculus with 4 samples.

Results

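The mitosis and G2/M genes described here are 37 genes chosen by symbol, of 31053 genes counted in each library, whose products assemble the spindle, condense and separate the chromosomes and take the cell through and out of mitosis. The rule names them and uses no measured value, but the members were chosen with earlier results of these data known. All 37 are protein-coding in GENCODE M21 and lie on 16 chromosomes of GRCm38. Each was read in single cells assigned by marker genes to the gates CD8 T cells, CD4 T cells, NK cells, B cells and myeloid cells.

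The question behind the samples was how activation of the aryl hydrocarbon receptor (AhR), a ligand-activated transcription factor, changes the immune cells of a liver injured by concanavalin A (ConA), a plant lectin that activates T cells. Liver mononuclear cells of C57BL/6 mice aged 8 to 10 weeks were enriched on a Percoll gradient and profiled by 10x Genomics 5′ single-cell RNA sequencing, with 1 library in each of 4 groups. The Naïve library came from mice without ConA. In the other groups mice got ConA as well as vehicle (ConA+Veh), the slowly degraded dioxin TCDD (ConA+TCDD) or the short-lived tryptophan photoproduct FICZ (ConA+FICZ). TCDD and FICZ are both ligands of AhR. Vehicle or TCDD was given soon after ConA, and cells were collected 24 hours after ConA, whereas the dose and timing of FICZ are not given in the sources used here. The labels do not say how many mice went into a library, or whether the Naïve mice were given vehicle.

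Cyclins A and B bind the kinase Cdk1 late in the cell cycle, and the resulting activity starts chromosome condensation and spindle assembly. Aurora, Polo-like and Bub kinases then hold and check the attachment of chromosomes to the spindle, until the anaphase-promoting complex marks cyclin B for destruction and the cell divides. Most lymphocytes in a resting liver are not in the cycle, and an activated T cell clone expands by repeated divisions, so that the transcripts of these genes mark the cells that are about to divide or dividing.

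Promoters of many G2/M genes carry CCAAT boxes and a cell cycle genes homology region (CHR), through which they are held down in resting cells and switched on late in the cycle. For 7 members whose levels are described in detail, the 200 bases from 180 before to 20 after the annotated start are printed from RefSeq on GRCm38.p6, 5′ to 3′ on the gene's strand, with capitals at every CCAAT or ATTGG (the CCAAT box on either strand) and every TTTGAA or, on the opposite strand, TTCAAA, and every TTTAAA, which reads alike on both strands (the CHR). Ccnb2 (chr9:70421535-70421734, minus strand), Ube2c (chr2:164769749-164769948, plus), Cdc20 (chr4:118437324-118437523, minus) and Plk1 (chr7:122159255-122159454, plus) were higher in ConA+FICZ than in ConA+TCDD CD8 cells, Mki67 (chr7:135716360-135716559, minus) and Top2a (chr11:99024170-99024369, minus) are the usual marker genes of dividing cells, and Racgap1 (chr15:99651637-99651836, minus) stood at a like level in Naïve and ConA+Veh CD8 cells.
Ccnb2: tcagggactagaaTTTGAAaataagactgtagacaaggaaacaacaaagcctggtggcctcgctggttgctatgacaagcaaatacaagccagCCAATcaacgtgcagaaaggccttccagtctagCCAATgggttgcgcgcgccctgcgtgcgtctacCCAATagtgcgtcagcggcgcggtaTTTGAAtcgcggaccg
Ube2c: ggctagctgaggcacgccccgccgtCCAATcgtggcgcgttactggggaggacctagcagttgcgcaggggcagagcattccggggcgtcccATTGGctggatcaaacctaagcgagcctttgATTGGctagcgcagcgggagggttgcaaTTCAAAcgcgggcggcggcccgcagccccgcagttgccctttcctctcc
Cdc20: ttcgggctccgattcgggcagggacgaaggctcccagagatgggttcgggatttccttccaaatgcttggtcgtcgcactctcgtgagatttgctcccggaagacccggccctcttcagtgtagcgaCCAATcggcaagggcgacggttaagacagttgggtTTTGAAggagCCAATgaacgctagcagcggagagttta
Plk1: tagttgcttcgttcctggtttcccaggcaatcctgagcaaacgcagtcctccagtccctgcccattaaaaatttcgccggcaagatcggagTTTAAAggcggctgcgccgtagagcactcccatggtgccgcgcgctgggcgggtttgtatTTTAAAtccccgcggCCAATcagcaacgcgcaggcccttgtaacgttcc
Mki67: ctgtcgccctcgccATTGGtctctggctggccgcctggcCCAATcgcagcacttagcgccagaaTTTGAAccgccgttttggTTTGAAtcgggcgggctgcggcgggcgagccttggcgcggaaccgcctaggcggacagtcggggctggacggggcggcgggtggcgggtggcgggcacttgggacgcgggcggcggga
Top2a: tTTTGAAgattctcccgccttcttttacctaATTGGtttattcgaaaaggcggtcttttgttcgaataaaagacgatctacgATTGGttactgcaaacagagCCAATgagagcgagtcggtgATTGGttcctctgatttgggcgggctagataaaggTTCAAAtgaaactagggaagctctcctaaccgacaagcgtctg
Racgap1: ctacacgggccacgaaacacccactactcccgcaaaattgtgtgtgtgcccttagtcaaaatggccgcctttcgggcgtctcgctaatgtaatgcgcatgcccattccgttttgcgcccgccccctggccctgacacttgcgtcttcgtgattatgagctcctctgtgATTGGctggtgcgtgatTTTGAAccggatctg

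Of the 37 members, 33 had an entry in the promoter table, which holds 250 bases before and 50 after each start. A CCAAT box was found in 25 of the 33 (75.8%) and in 41.1% of 27025 genes, and a CHR in 29 (87.9%) and in 30.6%. Both stood in 24 members (72.7%) and in 13.4% of all genes. A TATA box (TATAAA or TTTATA) was found in 1 member (3.03%) and in 15.7% of genes. The promoters of Racgap1 and Ccnb2 both hold the 2 motifs, as do most members. Whether the motifs bear on the levels of the members was not tested. A match describes letters in a window and not a bound site.

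Cells were placed in a gate by UMIs of lineage genes that are not members: Cd3d, Cd3e and Cd3g with Cd8a or Cd8b1 for CD8 cells and with Cd4 for CD4 cells, Ncr1, Klrb1c and Klre1 for NK cells, B cell genes including Cd79a, Cd79b and Ms4a1 for B cells, and Lyz2, Cst3, Csf1r and Cd68 for myeloid cells. Genes outside the gating were read in the same cells. In the CD8 gate Lck stood at 278 to 557 CPM (counts scaled to a total of 1000000) and Pax5 at 0 to 0.592 CPM. Ebf1 stood at 456 to 1654 CPM in the B gate, Eomes at 142 to 228 CPM in the NK gate and Ctss at 568 to 1598 CPM in the myeloid gate. Lck and Ctss did not single out 1 gate. Lck stood at 303 to 598 CPM in the NK gate too, and Ctss at 315 to 405 CPM in the B gate. A level is the summed UMIs of a gene over all UMIs of the gate's cells, in CPM. Every interval is a 95% interval that covers counting error alone, exact except for ratios of shares, which use a normal approximation on the log scale, and with 1 library per group no difference between groups has a replicate check. The 4 libraries held 1880 to 2779 cells and 5952445 to 19252211 UMIs, with a median of 2161 UMIs per cell in Naïve and 3147 to 3984 after ConA. Pairs of libraries shared 4 to 15 cell barcodes. The deposited barcodes were used as given, without a search for doublets.

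The members were low in resting liver and high after ConA in each of the 5 gates. In CD8 cells the 37 genes together stood at 369.6 CPM in Naïve (325.5 to 418.1, 161 cells), 3436 in ConA+Veh (3386 to 3487, 397 cells), 2846 in ConA+TCDD (2790 to 2904, 267 cells) and 2639 in ConA+FICZ (2589 to 2690, 250 cells). The ConA+Veh level was 3.22 above Naïve on the log2 scale (3.04 to 3.40). Both AhR ligand libraries lay below ConA+Veh, by -0.27 (-0.31 to -0.24) with TCDD and by -0.38 (-0.42 to -0.35) with FICZ. Both ratios share the ConA+Veh library. The intervals treat UMIs of the same cell as independent and do not separate conditions. The order of the ligand libraries was reversed without depth correction.

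CD4 cells gave the same order, at 663, 3235, 2139 and 1848 CPM (Naïve first, then ConA+Veh, then ConA+TCDD, with ConA+FICZ last, as in every set of 4 values from here on). Their log2 ratios were 2.29 (95% interval 2.10 to 2.48) for ConA+Veh over Naïve, -0.60 (95% interval -0.67 to -0.52) with TCDD and -0.81 (95% interval -0.88 to -0.73) with FICZ, both over ConA+Veh. NK cells stood at 178, 1428, 1577 and 761 CPM, with ConA+FICZ at -0.91 (95% interval -1.09 to -0.73) against ConA+Veh and ConA+TCDD at 0.14 (95% interval -0.00 to 0.29), an interval that reaches 0. B cells stood at 242, 1045, 858 and 849 CPM, and both ligand libraries lay below ConA+Veh, at -0.28 (95% interval -0.36 to -0.21) with TCDD and -0.30 (95% interval -0.36 to -0.24) with FICZ. Myeloid cells stood at 370.2, 1735, 2369 and 1261 CPM, and here the ConA+TCDD library was the highest of the 4, at 0.45 (95% interval 0.39 to 0.51) against ConA+Veh, while ConA+FICZ was lower at -0.46 (95% interval -0.52 to -0.40).

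**Figure D1:**
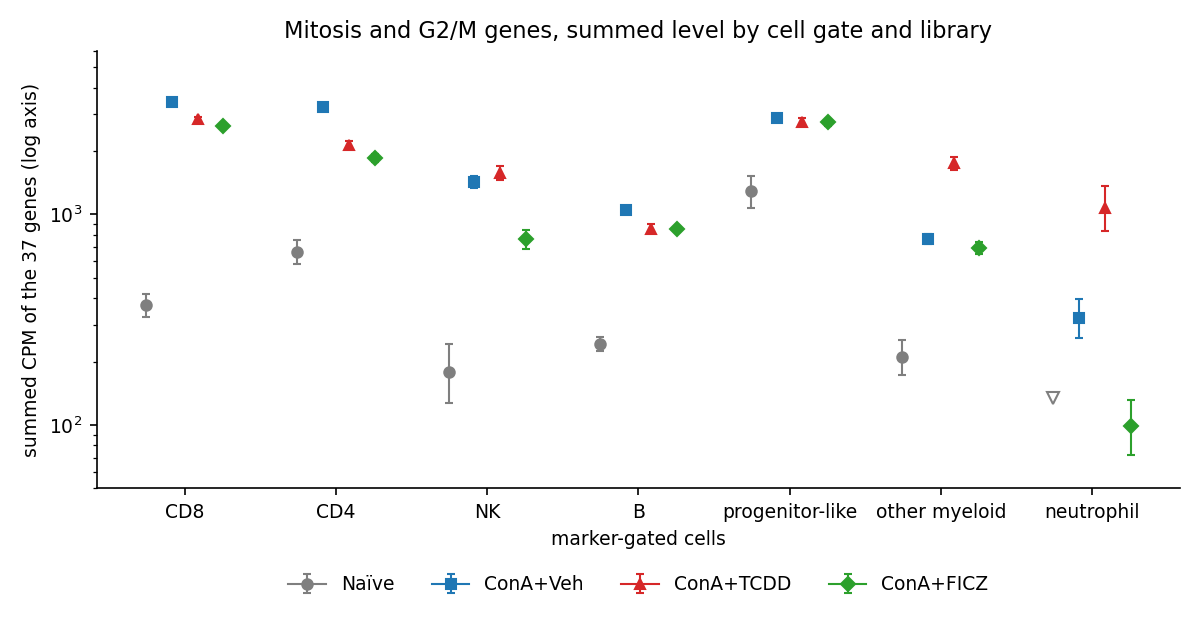
Summed level of the 37 genes in CPM (log axis) by gate and library, with exact 95% counting intervals; the open triangle marks the upper limit of 134 CPM (3 UMIs of the gate's total) for the Naïve neutrophil gate, which held 0 UMIs of the genes. In CD8, CD4, B and progenitor-like cells the ConA+Veh library is the highest. In the NK, other myeloid and neutrophil gates ConA+TCDD is, in other myeloid cells at 1751 CPM against 764 in ConA+Veh.

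These ratios depended on how depth and the weight of cells were treated. Thinning before gating also changed which cells passed a gate. The cells left in each gate are not given here, so its values do not show depth alone. Where cells were thinned to 1000 UMIs before gating, the ratios of ConA+TCDD and ConA+FICZ over ConA+Veh were -0.39 and -0.96 in CD8 cells, -0.07 and -3.17 in CD4 cells, -0.46 and -0.87 in B cells and 0.60 and -1.62 in myeloid cells, and ConA+FICZ was at -2.67 in NK cells. With no correction for depth, ConA+FICZ was at -0.08 in CD8 cells, and with equal weight for every cell it was at -0.71, -0.90 and -1.08 in CD8, B and myeloid cells, while NK cells of ConA+TCDD were at -0.10.

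A few cells carried much of the Naïve level. In Naïve CD8 cells 1 cell held 41.5% of the members' UMIs, and in Naïve CD4 cells 3 of 80 cells held 81.6%. Leaving out the 3 cells with the most member UMIs in each library, an alternative chosen after the data were seen, lowered the Naïve CD8 level to 151 CPM and the Naïve CD4 level to 160 CPM, against 3342 and 2957 CPM in ConA+Veh. It lowered the Naïve myeloid level to 115.5 CPM and the Naïve B cell level to 128.5 CPM, and the log2 ratios of ConA+Veh over Naïve rose from 2.23 to 3.75 in myeloid cells and from 2.11 to 2.87 in B cells. The B cell ratio of ConA+TCDD over ConA+Veh became -0.46. In CD4 cells of ConA+FICZ 3 of 81 cells held 32.4%. Leaving out every cell with a UMI of another lineage, also chosen afterwards, left 35 of those cells with 326.5 CPM, against 2902 CPM in 49 ConA+Veh cells and 2152 CPM in 33 ConA+TCDD cells. In NK cells the same filter gave 98.7, 634, 444 and 494 CPM, so that ConA+TCDD no longer stood above ConA+Veh, nor ConA+FICZ below ConA+TCDD. That filter also keeps shallower cells, and how far mixed barcodes contributed was not tested.

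The share of cells in which the genes were seen moved with the level. Cells were thinned at random to 1000 UMIs each, and a cell with UMIs of 2 or more members was counted. In the CD8 gate this held for 3.15% of Naïve cells (1.03 to 7.19), 57.9% of ConA+Veh (52.9 to 62.9), 41.8% of ConA+TCDD (35.7 to 48) and 34.5% of ConA+FICZ (28.7 to 40.8). Without thinning, the shares were 14.3%, 82.1%, 63.7% and 68.8%, at median depths of 3318, 10131, 9184 and 13365.5 UMIs, which puts ConA+FICZ above ConA+TCDD. Thinning left out 1 to 6 CD8 cells per library as too shallow. Neutrophils, which do not divide, were read for comparison. They reached 0 of 7 cells in Naïve and 0 of 110 in ConA+FICZ, which allow shares of up to 42.9% and 2.73% at 3 cells of the total. In ConA+Veh they reached 4.48% (0.933 to 12.5). In ConA+TCDD 1 of 17 cells was positive (5.88%, 0.149 to 28.7), and this gate had 90.9% of its member UMIs in 1 cell, so that it gives no measure of free RNA. Their median depths were 2615, 3440, 3333 and 3384 UMIs, and their unthinned shares 0, 16.4%, 11.8% and 3.64%.

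The lower CD8 level after either ligand went with fewer positive cells, at like numbers of UMIs in each. Positive CD8 cells held 5.37 thinned UMIs of the members in ConA+Veh, 5.66 in ConA+TCDD and 5.33 in ConA+FICZ, log2 ratios of 0.07 and -0.01. A cell is positive through these same UMIs, so a fall per cell would partly show as fewer positive cells. The means per positive cell have no interval and cannot tell these apart. The log2 ratio of the share was -0.47 (-0.71 to -0.23) for ConA+TCDD and -0.75 (-1.02 to -0.47) for ConA+FICZ against ConA+Veh. Between the ligands it was -0.27 (-0.60 to 0.05), an interval that includes 0. In CD4 cells the shares were 3.85%, 47.1%, 37.6% and 20.3%, unthinned 11.2%, 70.2%, 69.8% and 48.1%. With FICZ the CD4 share was lower (-1.22, -1.90 to -0.53) at 6.69 UMIs per positive cell against 6.43, whereas with TCDD the share ratio was -0.32 (-0.80 to 0.16) at 4.66 UMIs per positive cell.

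Among NK cells 2.33%, 12.1%, 13.6% and 5.69% were positive, and among B cells 0.948%, 10.1%, 9.01% and 6.4%. The unthinned shares were 2.83%, 29.9%, 24.4% and 12.2% for NK cells and 3.52%, 32.5%, 29.6% and 18.9% for B cells. Median depths ran from 1796.5 to 2819 UMIs in NK cells and from 2136 to 4310 in B cells, and the lowest of each was Naïve. The B cell share with FICZ was lower than with vehicle (-0.66, -1.15 to -0.16), and that with TCDD was not separated from it (-0.16, -0.74 to 0.41). Myeloid shares were 1.72%, 19.3%, 32.8% and 8.28%, with log2 ratios against ConA+Veh of 0.77 (0.28 to 1.25) for TCDD and -1.22 (-1.82 to -0.61) for FICZ. Unthinned, they were 9.68%, 48.5%, 50.8% and 23.2% at median depths of 3359.5 to 7779.5 UMIs. In ConA+FICZ the NK share had an interval of 2.32 to 11.4, which reaches down to the limit of 2.73% that neutrophils of that library allow, and in ConA+Veh the NK and B cell shares lay within the neutrophil interval. The Naïve shares, from 0.948% to 3.85%, had no usable background, since only 7 neutrophils were read there.

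**Figure D2:**
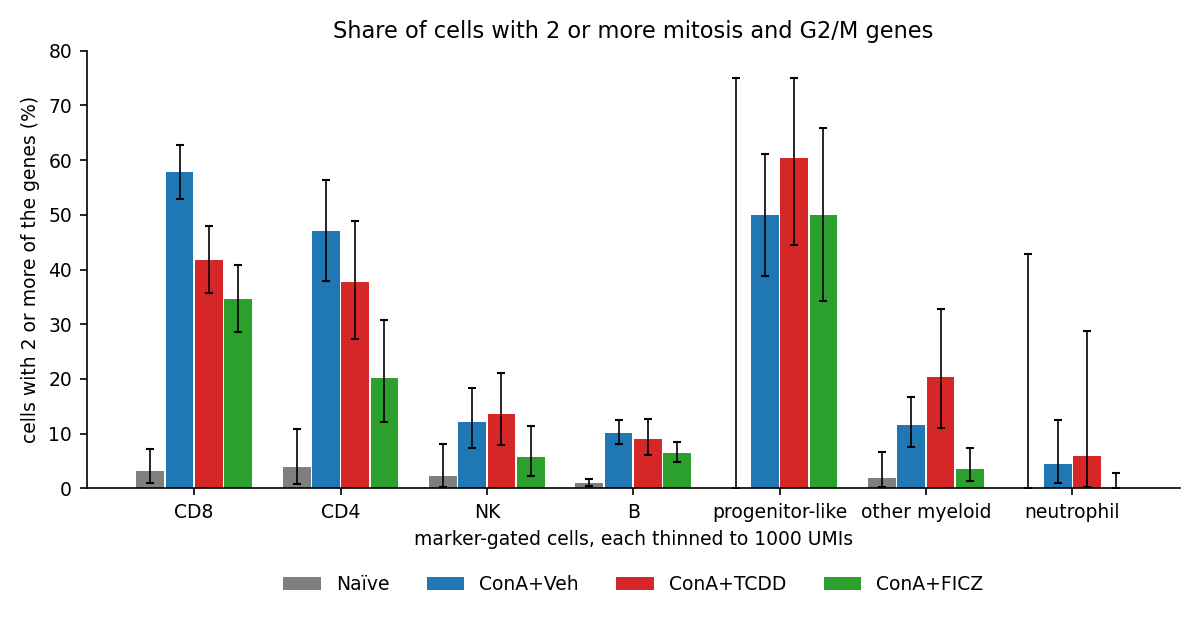
Percent of gated cells with UMIs of 2 or more of the 37 genes after thinning each cell to 1000 UMIs, with exact 95% binomial intervals, or for 0 cells the limit at 3 cells of the total, by gate and library. In CD8 cells the shares step from 57.9% in ConA+Veh to 41.8% in ConA+TCDD and 34.5% in ConA+FICZ, and neutrophils read 0 to 5.88%.

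Positive CD8 cells were larger in RNA and carried more of the replication genes. Their median depth was 11450 UMIs in ConA+Veh, 15268 in ConA+TCDD and 20640.5 in ConA+FICZ, against 9926, 7417 and 10987 UMIs in the remaining CD8 cells. Per 1000 thinned UMIs they held 4.46, 4.91 and 5.21 UMIs of 30 G1/S genes, against 2.5, 1.94 and 2.57 in the rest. Gzmb, the cytotoxic protease granzyme B, stood at a mean of 1.32 UMIs per 1000 in positive cells of ConA+Veh and 1.11 in the rest. In ConA+TCDD these values were 0.807 and 1.16, and in ConA+FICZ 0.5 and 1.12, so that Gzmb was lower in the positive cells of both ligand libraries and not of ConA+Veh. Nkg7 and Gzma did not share this pattern. Nkg7 was lower in positive cells of ConA+Veh too (0.833 and 1.255), as in ConA+TCDD (0.642 and 0.868) and ConA+FICZ (0.698 and 0.9325). Gzma was not lower in any, at 0.454 and 0.358, 0.385 and 0.375, and 0.256 and 0.2515. These means have no interval.

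Single members were read in the CD8 gate, which held the most member UMIs. Against Naïve, 36 of 37 members were at least 2-fold higher in ConA+Veh (13.6% of 9039 genes were), and the median log2 ratio was 3.58 with 0.5 UMIs added to each sum, beside -0.00 over all genes. With the 5 members at 0 UMIs in Naïve set at their lower bound, the median was 3.29. The bounds, against 3 UMIs in the Naïve library, were at least 9.72-fold higher for Ccnb1, 9.77-fold for Ncapg, 7.69-fold for Ckap2l, 3.71-fold for Kif2c and 1.72-fold for Anln. Against ConA+Veh, 31 of 37 members were lower in ConA+TCDD and 35 in ConA+FICZ. Most were small steps: 1 member was 2-fold or more lower with TCDD (1.72% of 9456 genes were) and 1 with FICZ (2.36% of 9565). Intervals lay wholly below 0 for 17 members with TCDD and for 21 with FICZ. No share of all genes with such intervals is given here, so these counts have no background. The median log2 ratio was -0.20 with TCDD, beside -0.01 over all genes, and -0.34 with FICZ, beside 0.00.

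Cdk1 and its cyclins had the highest summed ratio of ConA+Veh over Naïve among the roles, at 11.7, 331, 257 and 283 CPM and 4.83 (95% interval 3.84 to 6.04). Cdk1, the kinase that drives entry into mitosis, stood at 1.46, 102, 87.9 and 93.9 CPM, and its 1 Naïve UMI puts the ConA+Veh ratio at 6.13 (95% interval 3.64 to 11.43). Ccna2, cyclin A2 of S and G2 phase, stood at 7.31, 114, 95 and 93.7 CPM. Ccnb1, the cyclin B1 that partners Cdk1 at entry, stood at 0, 42.6, 40 and 41.6 CPM, level across the 3 ConA libraries, with -0.09 (95% interval -0.41 to 0.22) for TCDD. Ccnb2, cyclin B2, stood at 2.92, 72.7, 33.7 and 53.4 CPM, and was the member with the lowest ratio under TCDD, at -1.11 (95% interval -1.42 to -0.80). With FICZ it was at -0.45 (95% interval -0.70 to -0.20). The B-type cyclins therefore parted in the ConA+TCDD library, where 1 stood near its ConA+Veh level and the other well below.

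The kinases of spindle assembly and of the spindle checkpoint were nearly level after ConA, at 11.7, 141, 127 and 134 CPM in sum, with ratios of -0.15 (95% interval -0.33 to 0.02) and -0.08 (95% interval -0.24 to 0.09). Plk1, which acts from centrosome maturation to cytokinesis, was the exception, at 1.46, 49.4, 35.5 and 52.1 CPM. Its ratio was -0.48 (95% interval -0.80 to -0.16) with TCDD and 0.08 (95% interval -0.19 to 0.35) with FICZ. Aurka, the centrosomal Aurora A kinase, stood at 1.46, 25, 22.2 and 23.3 CPM. The checkpoint kinase Bub1 stood at 1.46, 25.2, 29.9 and 20.8 CPM, and the checkpoint protein Bub1b at 7.31, 41.9, 39.7 and 38.1 CPM. Neither differed from ConA+Veh beyond its counting interval in a ligand library.

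The chromosomal passenger complex, which corrects faulty attachments and later directs cytokinesis, had a summed ratio near 0 with TCDD, at 48.2, 529, 496 and 469 CPM and -0.09 (95% interval -0.18 to -0.01). Birc5, survivin, stood at 20.5, 313, 288 and 258 CPM, with -0.12 and -0.28 against ConA+Veh. Cdca8, borealin, stood at 19, 153, 149 and 154 CPM, close together in the 3 ConA libraries, with -0.04 (95% interval -0.20 to 0.13) and 0.01 (95% interval -0.15 to 0.16). Its kinase Aurkb stood at 8.77, 63.2, 58.9 and 57.4 CPM.

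Centromere and kinetochore genes stood at 61.4, 405, 308 and 295 CPM in sum. Cenpa, the histone H3 variant that marks the centromere, stood at 33.6, 121, 66.9 and 90.4 CPM, at -0.86 (95% interval -1.08 to -0.64) with TCDD and -0.42 (95% interval -0.61 to -0.23) with FICZ. Cenpf, a large coiled-coil protein of the outer kinetochore, stood at 4.38, 109.7, 81.4 and 73.9 CPM, and the kinetochore kinesin Cenpe at 8.77, 73.6, 60.7 and 52.1 CPM. In these 3 genes both ligand libraries were below ConA+Veh. The Ndc80 complex, which holds the microtubule end, was mixed: Ndc80 stood at 5.84, 42, 37.9 and 32.3 CPM and Nuf2 at 1.46, 31, 25.5 and 20 CPM. Spc25 of the same complex stood at 7.31, 27.1, 35.8 and 26.3 CPM, and it was the single member whose interval lay above 0 with TCDD, at 0.40 (95% interval 0.04 to 0.76).

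The genes of ubiquitin-driven mitotic exit had the lowest summed ratio with TCDD, at 26.3, 451, 297 and 377 CPM and -0.60 (95% interval -0.71 to -0.49). Ube2c, the ubiquitin-conjugating enzyme of the anaphase-promoting complex, stood at 8.77, 313, 183 and 251 CPM, with -0.78 (95% interval -0.92 to -0.64) for TCDD and -0.32 (95% interval -0.43 to -0.20) for FICZ. Cdc20, which activates that complex at anaphase, stood at 7.31, 44.6, 29.6 and 44.1 CPM, lower with TCDD (-0.59) and level with FICZ (-0.02). Cdca3, which helps degrade the mitotic inhibitor Wee1, stood at 10.2, 93.6, 85.2 and 81.7 CPM and did not share the TCDD value of the other two, at -0.13 (95% interval -0.35 to 0.08).

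Genes of chromosome structure had the lowest summed ratio with FICZ, at 74.5, 942, 802 and 584 CPM and -0.69 (95% interval -0.76 to -0.62). Mki67, which coats mitotic chromosomes and is the Ki-67 antigen, stood at 32.1, 365, 287 and 179 CPM, at -0.35 (95% interval -0.46 to -0.23) with TCDD and -1.02 (95% interval -1.15 to -0.90) with FICZ. Top2a, the topoisomerase that untangles sister chromatids, stood at 39.5, 481, 437 and 338 CPM, at -0.14 and -0.51. The condensin II subunit Ncapg2 stood at 2.92, 52.9, 44.7 and 31.8 CPM, at -0.24 and -0.73. Its condensin I counterpart Ncapg stood at 0, 42.8, 32.9 and 34.6 CPM, without that gap between the ligands. In the ConA+FICZ library Mki67 was the member with the lowest ratio, so the Ki-67 transcript alone gave a larger difference between FICZ and vehicle than the 37 genes in sum.

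Kinesin motors stood at 29.2, 159, 141 and 118 CPM in sum, -0.17 with TCDD and -0.43 with FICZ. Kif11, which pushes the spindle poles apart, stood at 11.7, 72.8, 64.2 and 54.1 CPM. Kif23, a motor of the central spindle, stood at 16.1, 40.1, 38.8 and 27.8 CPM and had 1 of the smallest ConA ratios, at 1.32 (95% interval 0.45 to 2.34). Kif20a, which acts in cytokinesis, stood at 1.46, 29.5, 21.6 and 21.3 CPM, and Kif2c, which takes microtubule ends apart, at 0, 16.3, 16.6 and 14.8 CPM. Each motor was below its ConA+Veh level with FICZ, from -0.14 for Kif2c to -0.53 for Kif23.

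Genes of spindle assembly and microtubule binding stood at 32.1, 397, 333 and 305 CPM in sum. Tpx2, the activator of Aurora A, stood at 4.38, 84.1, 75.5 and 66.4 CPM, and Tacc3, which bundles spindle microtubules, at 7.31, 68.6, 70.7 and 64.4 CPM. Nusap1, which links microtubules to chromosomes, stood at 14.6, 72.1, 58 and 56.1 CPM. Prc1, the crosslinker of the central spindle, stood at 2.92, 48.2, 42 and 34.3 CPM. The ligand ratios of these 4 genes ran from -0.49 for Prc1 with FICZ to 0.04 for Tacc3 with TCDD. Aspm, a spindle pole protein, stood lower, at 1.46, 38.4, 20.7 and 20.5 CPM and -0.89 (95% interval -1.30 to -0.49) and -0.90 (95% interval -1.29 to -0.52) with the ligands. Hmmr, a spindle-associated hyaluronan receptor, stood at 1.46, 51.9, 36.7 and 37.6 CPM, with a ConA ratio of 5.15 (95% interval 2.66 to 10.46) from 1 Naïve UMI. Ckap2l, a spindle protein, stood at 0, 33.7, 29 and 25.8 CPM.

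Among the cleavage furrow genes, Racgap1 was the exception to the ConA response. This GTPase-activating protein of the contractile ring stood at 74.5, 72.8, 78.1 and 71.1 CPM, with -0.03 (95% interval -0.46 to 0.42) for ConA+Veh over Naïve. Its Naïve level came from 33 of 161 cells, 21 of which held no UMI of another member, whereas in ConA+Veh 185 of 397 cells held it and 5 of those held no other member. Mki67, by comparison, was seen in 3 of 161 Naïve CD8 cells. Anln, anillin, was the single member under 100 UMIs in the gate and stood at 0, 7.56, 7.69 and 4.26 CPM.

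**Figure D3:**
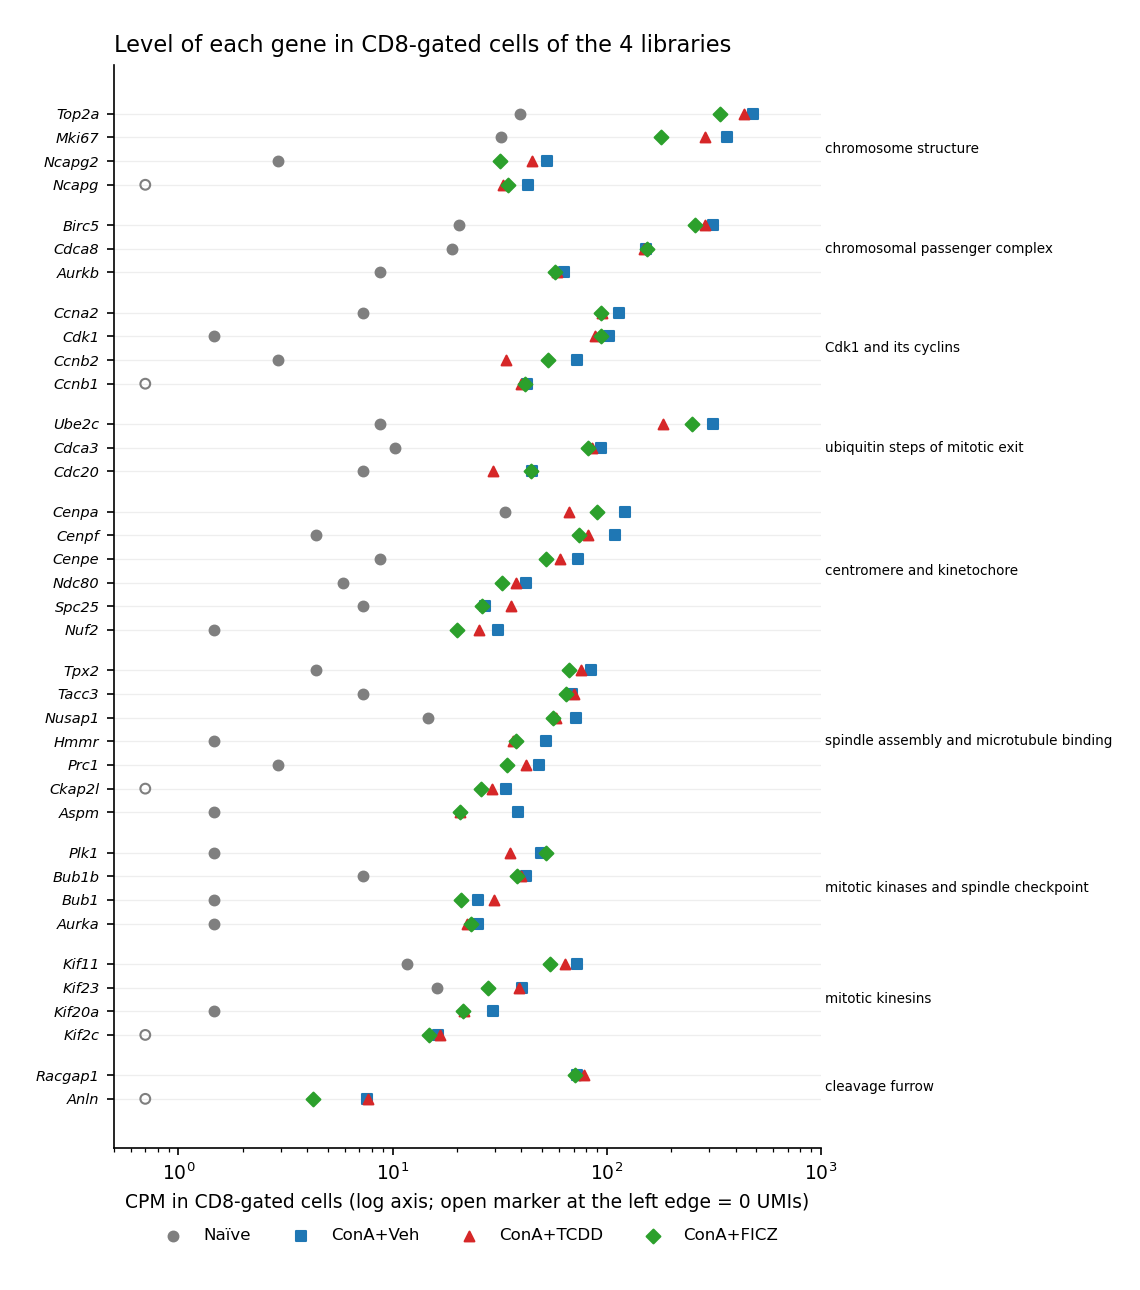
Level of each of the 37 genes in CD8 cells in CPM (log axis), 1 marker per library, grouped by role; open markers at the left edge are the 5 genes with 0 UMIs in Naïve. For 36 genes the Naïve marker lies to the left of the ConA+Veh marker, and for Racgap1 (74.5 CPM in Naïve, 72.8 in ConA+Veh) it lies among the others.

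**Figure D4:**
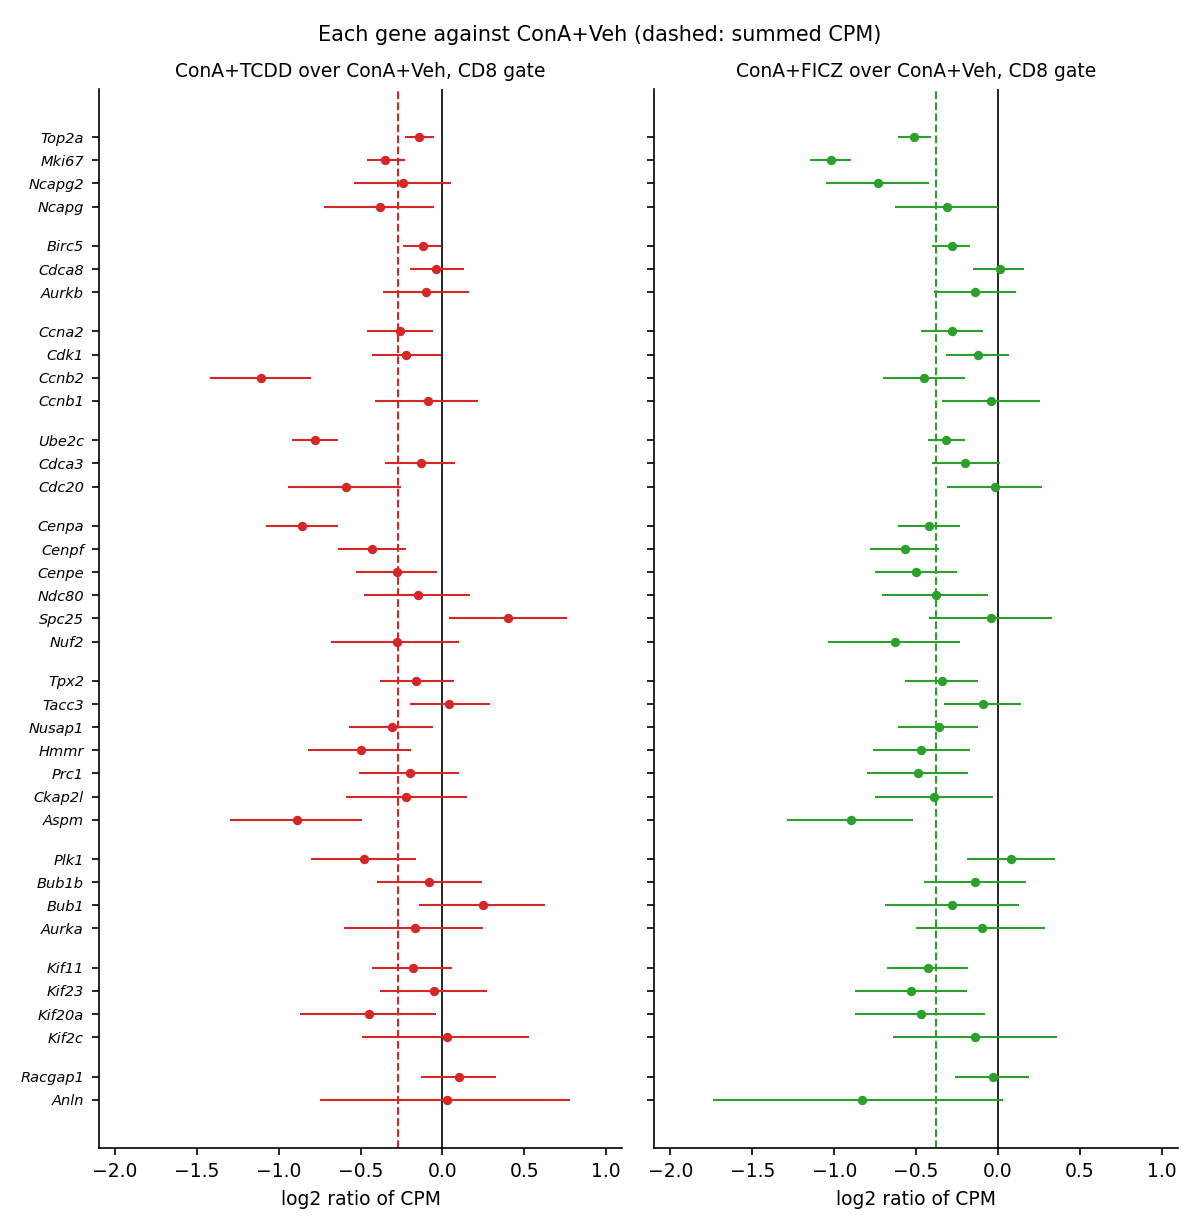
Log2 ratio of CPM in CD8 cells for ConA+TCDD over ConA+Veh (left) and ConA+FICZ over ConA+Veh (right), with exact 95% counting intervals; dashed lines are the ratios of the summed level, -0.27 and -0.38. Ccnb2 (-1.11), Aspm, Cenpa and Ube2c lie left of the line with TCDD, and Mki67 (-1.02), Aspm and Ncapg2 with FICZ.

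The ligand libraries parted in which members were low. In CD8 cells of ConA+FICZ the summed level was -0.11 (95% interval -0.15 to -0.07) against ConA+TCDD, without depth correction 0.23, yet Ccnb2 (0.66), Cdc20 (0.57), Plk1 (0.55), Ube2c (0.46) and Cenpa (0.44) were higher. Mki67 (-0.68), Bub1 (-0.52), Ncapg2 (-0.49) and Top2a (-0.37) were lower. Anln, with the lowest ratio, had few UMIs and an interval that includes 0, at -0.85 (95% interval -1.83 to 0.08). To follow this across gates, shares of the members' UMIs were taken for Ccnb2, Cdc20, Plk1, Ube2c and Cenpa together, and for Mki67, Top2a and Ncapg2 together. Both sets were picked from the CD8 values, which are therefore a description.

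The first set made up 17.5% of CD8 member UMIs in ConA+Veh (16.9 to 18.1), 12.2% in ConA+TCDD (11.6 to 12.9) and 18.6% in ConA+FICZ (17.9 to 19.4). In CD4 cells these shares were 16.4% (15.4 to 17.6), 10.2% (8.98 to 11.5) and 19.6% (17.9 to 21.4). In B cells they were 16.5% (15.5 to 17.6), 11.7% (10.2 to 13.3) and 16.3% (15.2 to 17.5). The set made up 36.6% in Naïve B cells, where Cenpa gave 183 of its 238 UMIs, mostly in cells without another member. Cenpa gave 284 of 859 set UMIs in ConA+Veh, 84 of 206 in ConA+TCDD and 219 of 616 in ConA+FICZ B cells. The B cell share is therefore not a measure of dividing cells alone. In the CD8, CD4 and B gates the ConA+TCDD interval lay below both others. These intervals treat UMIs as independent, although a single cell could hold many of them. In CD4 cells of ConA+FICZ 1 cell held 19 of 87 Cenpa UMIs. Leaving out cells was not tried on these shares. In progenitor-like myeloid cells the order was alike, at 23%, 17.5% and 25.2%. NK cells, at 20.8%, 19.5% and 11.5%, and the remaining myeloid cells, at 17.3%, 23.4% and 21.9%, had other orders, and differences between gates were not tested.

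The second set made up 26.2%, 27% and 20.8% of CD8 member UMIs in ConA+Veh, ConA+TCDD and ConA+FICZ, and 26.9%, 28.5% and 19.3% in CD4 cells. In B cells the values were 23.4%, 25.5% and 21%, and in progenitor-like cells 16.3%, 16.3% and 15.4%. In the remaining myeloid cells they were 23.9%, 13.8% and 20.5%, with ConA+TCDD and not ConA+FICZ the lowest. The set was picked from members lower with FICZ than with TCDD in CD8 cells, so the low CD8 share follows in part from that choice. Among the other gates listed, CD4 cells had the lowest FICZ share relative to ConA+Veh, a difference between gates that was not tested. In NK cells FICZ was the highest, at 22.4%, 25.5% and 33%.

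**Figure D5:**
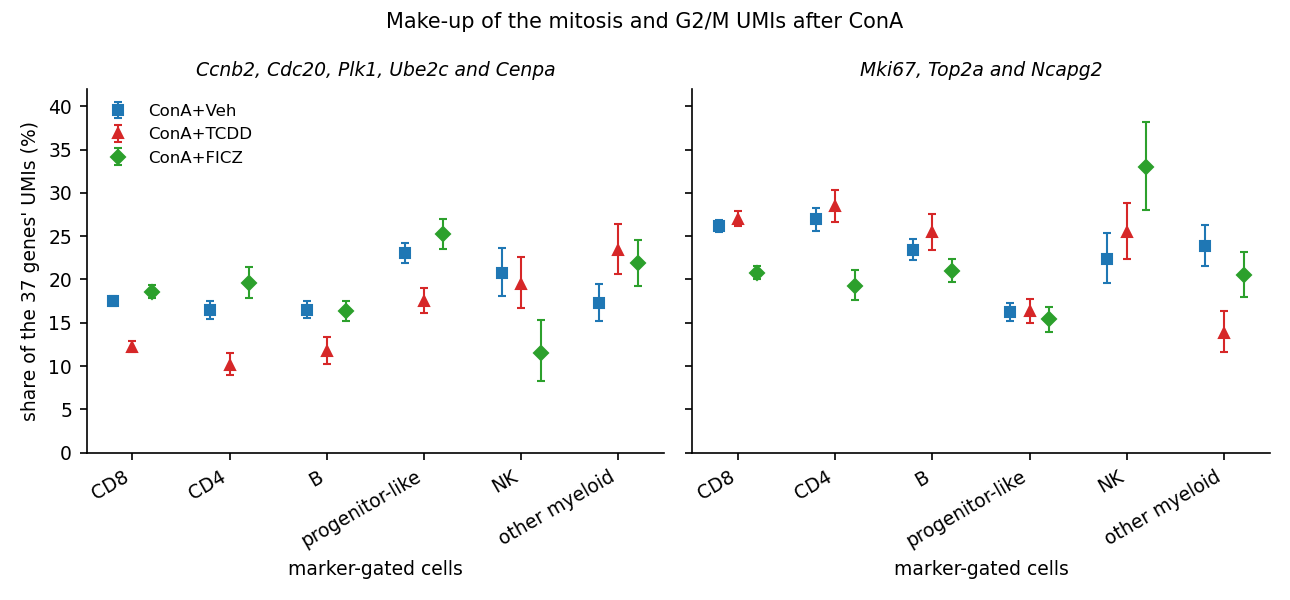
Percent of the 37 genes' UMIs held by Ccnb2, Cdc20, Plk1, Ube2c and Cenpa (left) and by Mki67, Top2a and Ncapg2 (right) in the 3 ConA libraries, with exact 95% binomial intervals, by gate. On the left ConA+TCDD is lowest in CD8, CD4, B and progenitor-like cells. On the right ConA+FICZ is lowest in the same gates, in B and progenitor-like cells with intervals that overlap those of ConA+Veh.

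Transcript length moved with the FICZ ratios of the members. In CD8 cells the ratio of ConA+FICZ over ConA+Veh had a Spearman correlation with the length of the longest coding transcript of -0.58 over 36 members and of -0.35 over 6463 genes, all read in the same 2 libraries. For ConA+TCDD over ConA+Veh it was -0.13 over members and -0.15 over 6275 genes. For ConA+FICZ over ConA+TCDD, from which the 2 sets were picked, it was -0.41 over 36 members and -0.25 over 5882 genes. Mki67 (10061 bases) and Top2a (5221) are long, and Ccnb2 (1531), Cdc20 (1793) and Cenpa (1466) short. The long Aspm (9867), Cenpf (11130) and Cenpe (7910) were below ConA+Veh with both ligands. For ConA+FICZ over ConA+Veh the B cell value was -0.38 over 27 members and -0.02 over 6323 genes, and in myeloid cells -0.46 over 29 members and 0.27 over 6197 genes. In CD4 cells it was -0.62 over 20 members and -0.24 over 3047 genes, and in progenitor-like cells -0.49 over 25 members and 0.17 over 3375 genes. The part of transcript length in the differences was not tested.

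In CD4 cells 35 of the 36 members with at least 20 UMIs were 2-fold or more higher in ConA+Veh than in Naïve (9.17% of all genes). Against ConA+Veh, 3 of 36 were 2-fold or more lower with TCDD (2.38% of genes) and 10 of 36 with FICZ (4.11%). Top2a, the member with the most UMIs, stood at 113, 472, 366 and 227 CPM and Birc5 at 56.6, 291, 210.3 and 196 CPM. Mki67 stood at 59.5, 351, 197 and 109 CPM, lower with FICZ than with TCDD as in CD8 cells, at -1.69 (95% interval -1.99 to -1.40) against ConA+Veh. Ube2c stood at 17, 274, 78.6 and 169 CPM, lower with TCDD than with FICZ, at -1.80 (95% interval -2.16 to -1.46) against ConA+Veh. Cdca8 stood at 22.7, 136, 91.4 and 97.7 CPM. The lowest CD4 ratio with FICZ was that of Aspm, at -2.78 (95% interval -4.04 to -1.72) from 8 UMIs against 70.

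In NK cells 14 members reached 20 UMIs over Naïve and ConA+Veh, and 13 of them were 2-fold or more higher in ConA+Veh (8.79% of genes). With TCDD 1 of 23 was 2-fold or more higher than in ConA+Veh (2.2%), namely Nusap1 at 1.02 (95% interval 0.02 to 2.07), and with FICZ 10 of 21 were 2-fold or more lower (3.89%). Top2a stood at 18.3, 188, 229 and 139.5 CPM and Mki67 at 27.4, 108, 148 and 98.1 CPM. Birc5 stood at 4.57, 115, 148 and 37.1 CPM, Ube2c at 0, 124, 124 and 34.9 CPM and Cenpa at 27.4, 94.9, 126 and 32.7 CPM, each lowest of the ConA libraries with FICZ. As in CD8 cells, Racgap1 stood at like levels in Naïve and ConA+Veh, at 41.1, 40.7, 31.5 and 30.5 CPM, from 7 to 14 cells per library.

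In B cells 33 of 36 members were 2-fold or more higher in ConA+Veh than in Naïve (8.57% of genes), 4 of 36 were 2-fold or more lower with TCDD (3.12%) and 2 of 37 with FICZ (2.19%), where 2 of 37 members with FICZ is a share close to that of all genes. Top2a stood at 23.4, 155, 134 and 124 CPM, and its UMIs came from 20 of 1080 Naïve and 178 of 832 ConA+Veh cells. Birc5 stood at 7.44, 90.6, 77.5 and 71.3 CPM and Mki67 at 13.8, 76.5, 63.9 and 49.1 CPM. Ube2c stood at 6.32, 71.5, 34.1 and 46.8 CPM, the lowest of the ConA libraries with TCDD at -1.07 (95% interval -1.46 to -0.69). Cenpa was not higher after ConA, at 68, 57.1, 41 and 49.3 CPM and -0.25 (95% interval -0.53 to 0.02) for ConA+Veh over Naïve, an interval that includes 0, and its Naïve UMIs came from 163 of 1080 cells, 138 of which held no other member. Most resting B cells with the centromere histone thus had no other member read.

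In the myeloid gate 32 of 37 members were 2-fold or more higher in ConA+Veh than in Naïve (6.48% of genes). All 37 were higher in ConA+TCDD than in ConA+Veh, with a median log2 ratio of 0.51, beside 0.00 over all genes. The intervals of 18 lay above 0, a count given without a share of all genes. Of the 37, 1 reached 2-fold (2.94% of genes). That member was Spc25, at 3, 16.3, 39.7 and 7.29 CPM and 1.29 (95% interval 0.74 to 1.83). With FICZ 2 members were 2-fold or more lower than in ConA+Veh (3.94%), Kif11 at -1.33 and Spc25 at -1.16. Top2a stood at 25.5, 192, 217 and 131 CPM, Ube2c at 10.5, 177, 204 and 121 CPM and Birc5 at 30, 155, 223 and 92.3 CPM. Mki67 stood at 13.5, 103, 131 and 67.1 CPM and Cenpa at 48, 86.8, 106 and 78.4 CPM, so that each of the 5 members with the most UMIs was highest in ConA+TCDD.

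The myeloid gate mixed cells that divide with cells that do not, and their mix differed. Progenitor-like cells, with Mpo, Elane, Prtn3 or Ctsg, made up 4 of 124, 84 of 359, 43 of 120 and 42 of 327 myeloid cells, and neutrophils 8, 67, 17 and 110. Within progenitor-like cells the members stood at 1288, 2881, 2764 and 2739 CPM, with -0.06 (95% interval -0.13 to 0.01) for TCDD and -0.07 (95% interval -0.14 to -0.00) for FICZ against ConA+Veh. The summed levels of the 3 ConA libraries thus lay close together in these cells, in sums to which deep cells add most. No alternative setting was tried on this sum. Top2a stood there at 58.1, 295, 269.6 and 267 CPM, Ube2c at 38.8, 323, 213 and 277 CPM and Birc5 at 155, 266, 260.3 and 205 CPM. Cdca8 stood at 58.1, 135, 163 and 155 CPM and Cenpa at 174, 142, 121 and 173 CPM, and all Naïve values rest on 4 cells with 133 member UMIs.

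In the remaining myeloid cells the members stood at 211, 764, 1751 and 691 CPM, with ConA+TCDD at 1.20 (95% interval 1.07 to 1.32) and ConA+FICZ at -0.15 (95% interval -0.27 to -0.02) against ConA+Veh. The ConA+TCDD value came from 60 cells, and it was 1142 CPM without the 3 cells with the most member UMIs, against 624 CPM in ConA+Veh. Ube2c stood at 5.54, 47.1, 201 and 57.5 CPM, highest in ConA+TCDD in contrast to T and B cells. Top2a stood at 20.3, 109, 137 and 82 CPM, Birc5 at 7.39, 62.4, 154 and 49.6 CPM, Mki67 at 12.9, 60, 94.3 and 48.2 CPM and Cenpa at 25.9, 41, 88.2 and 40.3 CPM. T cell RNA in these cells was also highest in ConA+TCDD, with Cd8a at 14.8, 23.9, 55.4 and 12.2 CPM and Cd3e at 0, 24.5, 41 and 8.63 CPM. Without cells that held any T or B cell gate UMI the members stood at 135, 616, 1658 and 535 CPM.

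Other genes of the cycle were read in the CD8 gate for comparison. Of 47 other G2/M genes, 40 of the 46 with at least 20 UMIs were 2-fold or more higher in ConA+Veh than in Naïve (13.6% of 9039 genes were). Their median log2 ratio was 2.47. Their medians were -0.13 with TCDD and -0.22 with FICZ, beside -0.20 and -0.34 for the members. Ube2s, which extends ubiquitin chains for the anaphase-promoting complex, stood at 245, 757, 648 and 548 CPM, the condensin subunit Smc4 at 389, 406, 345 and 289 CPM and the tubulin Tubb4b at 92, 358, 314 and 376 CPM. Tubb4b was thus not lower with FICZ.

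In CD8 cells all 30 G1/S genes were 2-fold or more higher in ConA+Veh than in Naïve (13.6% of 9039 genes were), with a median of 2.07. Their summed level in these cells hardly differed between the ConA libraries, at 1059, 4270, 4118 and 4225 CPM. Their medians were -0.08 with TCDD and -0.03 with FICZ. Dut, which clears dUTP, stood at 83.3, 500.2, 503 and 515 CPM, the replicative helicase subunit Mcm6 at 78.9, 284, 279 and 275 CPM and the sliding clamp Pcna at 101, 269, 287 and 251 CPM. The ratio of member UMIs to G1/S UMIs in CD8 cells was therefore 0.349 in Naïve, 0.805 in ConA+Veh, 0.691 in ConA+TCDD and 0.625 in ConA+FICZ. In CD4 cells it was 0.317, 0.729, 0.438 and 0.564, in NK cells 0.181, 0.705, 0.817 and 0.42, and in B cells 0.304, 0.535, 0.405 and 0.454. In myeloid cells it was 0.3175, 0.923, 0.97 and 0.77. Outside the CD8 gate these ratios also rest on G1/S levels that differed between the ConA libraries. The G1/S genes stood at 2092, 4440, 4880 and 3280 CPM in CD4 cells and at 1166, 1878, 2442 and 1637 CPM in myeloid cells. In B cells they stood at 796, 1951, 2120 and 1872 CPM, and in NK cells at 987, 2026, 1930 and 1812 CPM. In T and B cells both ligand libraries thus held fewer mitosis UMIs per replication UMI than ConA+Veh. In NK and myeloid cells ConA+FICZ held fewer and ConA+TCDD did not.

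Genes that restrain the cycle went against the members in sum, at 1328, 619, 541 and 540 CPM for 14 genes, but not gene by gene. Of these genes, 5 were 2-fold or more higher with ConA (13.6% of 9039 genes were) and 4 lower, with a median of -0.01. The share of all genes that were 2-fold or more lower is not given here. The antiproliferative genes Btg1 and Btg2 stood at 741, 190.4, 172 and 145 CPM and 262, 101, 80.5 and 86.7 CPM, and the Cdk4 and Cdk6 inhibitor Cdkn2d at 65.7, 59.7, 58 and 70.1 CPM.

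The genes whose pattern was most like that of the members' sum, by Pearson correlation of log2(CPM + 10) over 29 combinations of gate and library with at least 50 cells, among 9850 genes, were Shcbp1 (r = 0.928), Smc2 (0.920), Hist1h2ae (0.916), Ube2s (0.914) and Cks1b (0.914). The combinations share libraries, and gates from the same library are not independent. Shcbp1, an adaptor protein, stood at 1.46, 29.1, 32 and 27.1 CPM in CD8 cells, and Cks1b, a subunit of Cdk complexes, at 17.5, 165, 151 and 184 CPM.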

How the data were processed

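The deposited count matrices hold UMI counts per gene and cell barcode, made by the authors with Cell Ranger 3.0.2 on mm10 per the submitters' processing notes and methods; their values are unnormalized counts of cells the authors' pipeline had called. The libraries were read with Python 3.11.15, numpy 2.4.6, scipy 1.17.1 and pandas 2.3.3 and drawn with matplotlib 3.10.9. The ConA+FICZ library is known here from its label alone. Members, gene lists and gates were chosen with earlier results of these data known. A T cell had at least 2 UMIs of T genes, a B cell 3 of B genes, a myeloid cell 5 of myeloid genes and an NK cell 2 of NK genes, more than of B or myeloid genes and with no T, CD8 or CD4 gene, and T, B and myeloid cells needed more than 50% of lineage UMIs for their own lineage. Progenitor-like cells had at least 3 UMIs of progenitor genes, neutrophils 10 of S100a8 and S100a9, and erythroid cells 2 of erythroid genes. Of the genes used for gating, 2 are not reported here. No cell was removed for quality, and no doublet caller was run.

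UMIs were summed per gate and library and divided by the gate's total. Intervals are exact at 95% (Poisson for levels, binomial for ratios of sums, Clopper-Pearson for shares); those of share ratios are normal approximations on the log scale. No test between groups was made, since each group has 1 library. Genes with at least 20 UMIs in both libraries together entered the counts past 2-fold, with 0.5 added to each sum. UMIs of different genes were not compared as levels, since they were not scaled by length. Intervals of single-gene ratios were checked on simulated Poisson counts with known ratios, at the depths of the CD8 and B gates. Those counts had no cells, so the check does not cover UMIs gathered in a few cells. Reported with values were all members with at least 100 UMIs in CD8 cells, the 5 with the most UMIs in each other gate and the 3 highest and lowest CD8 ratios per comparison. Cells over 1000 UMIs were thinned with a fixed seed. Alternatives covered gate purity, depth, cell weight, totals, quality filters, thinning depth, the number of members counted, and fold and UMI minimums. Of the members, 10 overlap a gene on the opposite strand and 0 a gene on the same strand.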

Additional observations from a re-analysis of the deposited data

Results flagged for a closer look

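After TCDD the summed level of the 37 genes lay on different sides of ConA+Veh in different cells. The log2 ratio of ConA+TCDD over ConA+Veh was 0.45 in myeloid cells and 1.20 in myeloid cells other than progenitor-like cells and neutrophils. It was -0.27 in CD8 cells, -0.60 in CD4 cells and -0.28 in B cells. Each value compares the same 2 libraries, and the difference between the cell types was not tested.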

How the results depend on the processing

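No paired analysis was possible because each group has 1 library. For single members in CD8 cells only a gate purity of at least 80% and totals without ribosomal and mitochondrial genes were tried. All 208 of these log2 ratios stayed within their counting interval. They cover ConA+Veh over Naïve and each ligand over ConA+Veh, and no single-member ratio of FICZ over TCDD was among them. Thinning before gating, cell weight, depth, quality filters and leaving out cells were not tried on single members. Of the summed levels, 98 values stayed within the interval, 100 moved out of it and 2 changed sign where the interval excluded 0. Of the shares, 107 stayed and 11 moved. Of the counts of members past 2-fold, 31 stayed within 1.5 times the reported count and 14 did not. The values below moved by more, and the cause was not tested. With gates and members both read from cells thinned to 1000 UMIs, the log2 ratios of the summed level were, for ConA+Veh over Naïve 3.70 (CD8), 5.86 (CD4), 2.03 (NK), 2.38 (B) and 1.47 (myeloid), for TCDD over vehicle -0.39 (CD8), -0.07 (CD4), -0.46 (B) and 0.60 (myeloid), for FICZ over vehicle -0.96 (CD8), -3.17 (CD4), -2.67 (NK), -0.87 (B) and -1.62 (myeloid), for FICZ over TCDD -0.57 (CD8), -3.10 (CD4), -2.88 (NK), -0.41 (B) and -2.22 (myeloid). With the mean of the CPM of single cells, the log2 ratios of the summed level were, for ConA+Veh over Naïve 3.91 (CD8), 3.85 (CD4), 2.26 (B) and 2.55 (myeloid), for TCDD over vehicle -0.48 (CD8) and -0.10 (NK), for FICZ over vehicle -0.71 (CD8), -1.08 (CD4), -0.90 (B) and -1.08 (myeloid), for FICZ over TCDD -0.23 (CD8), -0.44 (CD4), -0.67 (B) and -1.51 (myeloid). With uncorrected member UMIs per cell, the log2 ratios of the summed level were, for ConA+Veh over Naïve 4.83 (CD8), 3.66 (CD4), 3.87 (NK), 3.38 (B) and 3.14 (myeloid), for TCDD over vehicle -0.31 (CD8), -0.45 (CD4) and 0.77 (myeloid), for FICZ over vehicle -0.08 (CD8), -0.58 (CD4), -0.36 (B) and -0.73 (myeloid), for FICZ over TCDD 0.23 (CD8) and -1.50 (myeloid). Without cells under 200 genes or over 10% mitochondrial UMIs, the log2 ratios of the summed level were, for ConA+Veh over Naïve 3.43 (CD8), for FICZ over vehicle -0.31 (CD8), -0.70 (CD4) and -0.23 (B), for FICZ over TCDD -0.05 (CD8) and 0.08 (B). Without cells holding a UMI of another lineage, an alternative chosen after seeing the data, the log2 ratios of the summed level were, for ConA+Veh over Naïve 4.34 (CD8), 4.42 (CD4), 1.81 (B) and 3.48 (myeloid), for TCDD over vehicle -0.54 (CD8), -0.43 (CD4), -0.51 (NK), -0.11 (B) and 0.35 (myeloid), for FICZ over vehicle -0.66 (CD8), -3.15 (CD4), -0.36 (NK), -0.63 (B) and -0.70 (myeloid), for FICZ over TCDD -2.72 (CD4), 0.15 (NK), -0.52 (B) and -1.05 (myeloid). Without the 3 cells with the most member UMIs per library, also chosen after seeing the data, the log2 ratios of the summed level were, for ConA+Veh over Naïve 4.47 (CD8), 4.21 (CD4), 2.87 (B) and 3.75 (myeloid), for FICZ over vehicle -0.44 (CD8), -1.10 (CD4), -1.37 (NK), -0.37 (B) and -0.63 (myeloid), for FICZ over TCDD -0.16 (CD8), -0.42 (CD4), -1.79 (NK), 0.10 (B) and -1.07 (myeloid), for TCDD over vehicle -0.68 (CD4), 0.42 (NK) and -0.46 (B). With the median over members, the log2 ratios of the summed level were, for ConA+Veh over Naïve 3.58 (CD8), 2.07 (CD4) and 2.50 (B), for TCDD over vehicle -0.20 (CD8) and 0.51 (myeloid), for FICZ over vehicle -0.34 (CD8), -0.69 (CD4) and -0.23 (B). Without Top2a, the log2 ratio of the summed level was, for FICZ over TCDD -0.07 (CD8). At a gate purity of at least 80%, the log2 ratios of the summed level were, for ConA+Veh over Naïve 1.94 (B), for TCDD over vehicle -0.17 (B), for FICZ over vehicle -0.15 (B). With totals that leave out ribosomal and mitochondrial genes, the log2 ratios of the summed level were, for TCDD over vehicle 0.51 (myeloid), for FICZ over TCDD -1.02 (myeloid). Without thinning, the log2 ratios of the share of positive cells were, for ConA+Veh over Naïve 2.52 (CD8), for FICZ over vehicle -0.26 (CD8), for FICZ over TCDD 0.11 (CD8) and -1.13 (myeloid), for TCDD over vehicle 0.07 (myeloid). Counting cells with 1 or more members, the log2 ratios of the share of positive cells were, for ConA+Veh over Naïve 2.05 (CD8), 1.34 (B) and 1.28 (myeloid), for TCDD over vehicle 0.24 (myeloid), for FICZ over TCDD -1.14 (myeloid). Counting cells with 4 or more members, the log2 ratio of the share of positive cells was, for ConA+Veh over Naïve 5.68 (B). At a fold of 1.5, the numbers of members past the fold were 5 (CD8, TCDD over vehicle), 15 (CD4, TCDD over vehicle), 2 (NK, TCDD over vehicle), 7 (B, TCDD over vehicle), 14 (myeloid, TCDD over vehicle), 5 (CD8, FICZ over vehicle), 21 (CD4, FICZ over vehicle), 6 (B, FICZ over vehicle) and 12 (myeloid, FICZ over vehicle). Among members with at least 50 UMIs, the numbers of members past the fold were 5 (NK, ConA+Veh over Naïve), 0 (NK, TCDD over vehicle) and 3 (NK, FICZ over vehicle). Among members with at least 10 UMIs, the numbers of members past the fold were 24 (NK, ConA+Veh over Naïve) and 2 (NK, TCDD over vehicle). For the fold of 1.5 and the minimums of 50 and 10 UMIs no share of all genes is given, so these counts have no background. Where the reported interval excluded 0, the sign changed for FICZ over TCDD in CD8 cells without depth correction and in NK cells without cells of another lineage. Where it included 0, the sign also changed among the values above for TCDD over vehicle in NK cells (-0.10 and -0.51), for FICZ over TCDD in B cells (0.08 and 0.10) and for the CD8 share between the ligands (0.11). Every group has 1 library, so no value has a replicate check. Naïve NK cells held 39 member UMIs, and the ConA+TCDD neutrophil gate 17 cells.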

Other observations

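Erythroid cells, which lay outside the 5 gates and were marked by erythroid genes including Alas2, Slc4a1 and Rhag, stood at 300.4, 2067, 4459 and 1437 CPM of the 37 genes from 20, 63, 86 and 8 cells. Ube2c made up 72.7%, 64.9%, 21.5% and 2.5% of these UMIs and stood at 218, 1342, 959 and 35.9 CPM. Mki67 stood at 0, 107, 611 and 108 CPM, Birc5 at 0, 26.8, 394 and 144 CPM, Nusap1 at 54.6, 161, 228 and 18 CPM and Top2a at 0, 80.5, 183 and 162 CPM. In ConA+Veh 17 of the 36 erythroid cells with Ube2c held no other member. In ConA+TCDD 1 erythroid cell held 19 members after thinning, and 3 cells held 34.1% of the members' UMIs.

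In neutrophils of ConA+TCDD 1 of 17 cells held 90.9% of the members' UMIs, in a gate that stood at 1077 CPM against 321 CPM in ConA+Veh and 98.5 CPM in ConA+FICZ. T cells with UMIs of neither or both of the Cd4 and Cd8 genes, outside the 5 gates, stood at 534, 2075, 1067 and 1456 CPM from 251, 283, 285 and 222 cells, and here ConA+TCDD was below ConA+FICZ.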
